A study of Homo sapiens with 6 samples.

Results

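Expression of 9 apolipoprotein genes (APOA1, APOA2, APOA5, APOB, APOC1, APOC3, APOE, APOH and APOM) and of MTTP, the gene for the lipid transfer protein that loads apolipoprotein B, was followed in HepG2 cells, a human hepatoma line. Members were all non-control probes carrying 1 of these 10 gene names in the scanner files, which gave 12 of 41000 probes and 10 of 30982 gene names. APOC1 and APOM had 2 probes each and the other genes 1 each. One array held control cells, to which the labels give no agent and no time. The 5 treated arrays held cells exposed to ESB, named in the titles as Scutellaria baicalensis, at 100 µg/ml, 1 array each at 1, 3, 6, 12 and 24 h. No genotype or transgene is given for any group, and all 6 arrays share the same line and culture medium with fetal bovine serum. The series asks how expression differs with the length of exposure. Each group is 1 array, every comparison shares the single control array, so differences at 1 time carry no test.

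Liver cells package triglyceride and cholesterol into particles held by apolipoproteins. Apolipoprotein B is the structural protein of very low density lipoprotein, and microsomal triglyceride transfer protein, encoded by MTTP, adds lipid to it in the endoplasmic reticulum. Apolipoproteins A-I and A-II form the frame of high density lipoprotein, and the smaller exchangeable apolipoproteins move between particles and set how fast lipases and receptors clear them.

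Probes are 60-base oligonucleotides, and the sequences below are those that the scanner files list for probes whose values are described most fully. Their positions on a genome build are not given here, since the sources used here name no build for the files' coordinates. The APOC1 pair is shown because its probes are not independent readings. They share a run of 50 bases, in capitals, which starts at base 11 of the first and base 1 of the second.
APOC1 probe A_23_P4649: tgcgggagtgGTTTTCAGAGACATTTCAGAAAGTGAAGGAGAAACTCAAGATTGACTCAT
APOC1 probe A_24_P109214: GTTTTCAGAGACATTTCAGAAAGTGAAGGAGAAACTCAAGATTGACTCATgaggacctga
The probes of APOA1, APOC3 and MTTP are shown because the bound at 1 h (APOA1) and the gap at 24 h (APOC3 and MTTP) described below rest on them.
APOA1 probe A_23_P203191: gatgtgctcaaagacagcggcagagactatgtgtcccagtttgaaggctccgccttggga
APOC3 probe A_23_P203183: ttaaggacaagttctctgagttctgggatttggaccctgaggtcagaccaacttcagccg
MTTP probe A_23_P213171: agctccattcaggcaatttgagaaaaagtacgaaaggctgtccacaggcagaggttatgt
The pair for APOM shared no run longer than 6 bases. APOA1, APOC3 and APOA5 lie on chromosome 11, where APOA4 stands between APOA5 and APOC3 in the RefSeq gene table. APOC1 and APOE are neighbours on chromosome 19. APOA2 lies on chromosome 1, APOB on 2, MTTP on 4, APOM on 6 and APOH on 17.

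Brightness varied widely between arrays. Processed signals had a 75th percentile of 768 units in the control, then of 1090, 1900, 153, 420 and 1640 units in order of exposure. A level below is therefore the log2 signal minus the log2 of that percentile, and a difference is a treated level minus the control level. Spike-in spots stood at -2.8 to -1.37 log2 units from the percentile, lowest at 24 h and 3 h. Scaling to them in place of the percentile put the median difference of all probes at 0.19, 1.08, 0.17, 0.46 and 1.20 at the 5 times, so differences here are relative to the cells' other RNA. The error beside a difference is the SD expected of 1 probe, taken from gene names with more than 1 probe, and was 0.38, 0.48, 0.79, 0.69 and 0.70 in order of exposure. It holds no spread between cultures or arrays. All 10 hepatocyte markers examined were well above background on every array, and 7 of them were saturated on at least 1 array. Of 6 intestinal markers, which were examined because intestine also makes apolipoprotein B, FABP2, CDX2, SI, APOBEC1 and LCT were above background on no array, and VIL1 was on every array, with a control signal of 16100 units. Of 6 macrophage markers, LYZ and CD68 were above background on every array, as were VWF of 4 endothelial and ACTA2 of 4 fibroblast markers. Less RNA per cell and fewer cells of a kind cannot be told apart on such arrays.

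Many members were at the ceiling of the scanner. All 12 probes were well above background on all 6 arrays, but 23 of the 72 probe and array values were saturated. The probes of APOA5, APOC3 and MTTP and 1 APOM probe (A_24_P89426) were saturated on no array. The APOA2 probe was saturated on every array, and the other 7 probes on some. Saturated member probes numbered 3 in the control and 4, 8, 1, 2 and 5 in order of exposure, most on the brightest array and fewest on the dimmest. A probe counted as saturated on an array if any of its spots was. Differences are given where both arrays were unsaturated, which held for 8, 4, 9, 9 and 7 of the 12 probes in order of exposure.

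**Figure D1:**
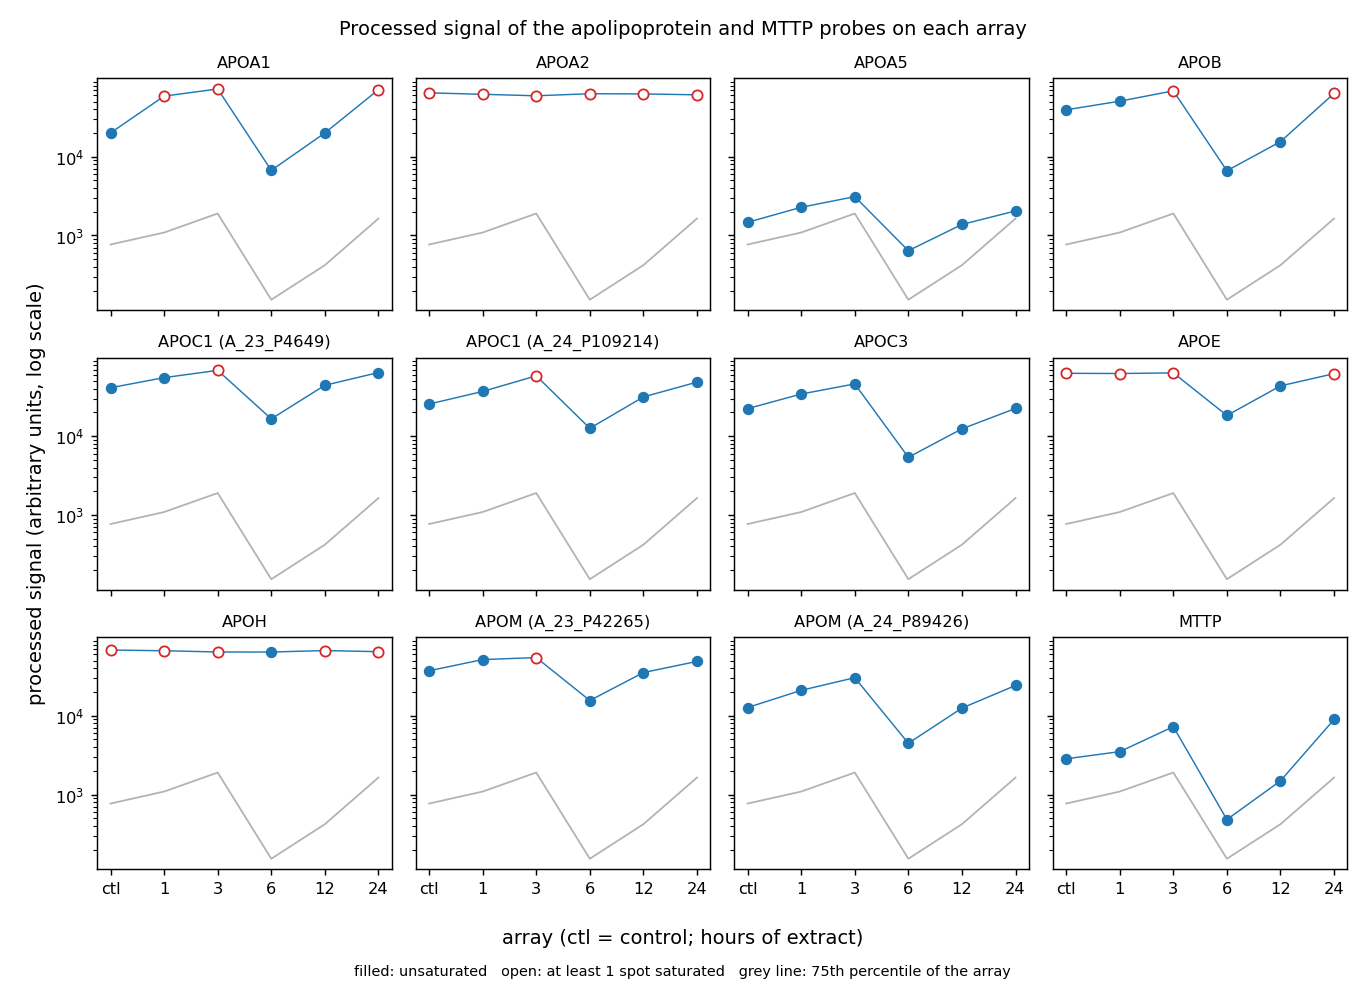
Processed signal in arbitrary units on a log axis, 1 panel per probe, for the control array (ctl) and the arrays at 1, 3, 6, 12 and 24 h. Filled points are unsaturated, open points have at least 1 saturated spot, and the grey line is the 75th percentile of each array. The APOA2 panel is flat at the ceiling on all 6 arrays, while the APOC3 point at 24 h (22500) is level with the control (22400) although the grey line is higher there.

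As a group under percentile scaling, the measured members stood close to the control at 1 h and 3 h, mostly above it at 6 h and 12 h, and mostly below it at 24 h. The measured set differed between times, since saturated probes were left out. APOA1 was left out at 1 h, 3 h and 24 h, where its bounds, described below, were at least 2.06-fold, 1.45-fold and 1.65-fold higher. No measured member probe was at least 2-fold higher at 1 h (0 of 8, against 2.9% of all measured probes) or 3 h (0 of 4, against 4.61%). At 6 h 4 of 9 were, against 23.8% of all measured probes, and these were the APOA5 probe, both APOC1 probes and 1 APOM probe. At 12 h 1 of 9 was, against 13.0%, and at 24 h 0 of 7, against 8.38%. At least 2-fold lower were 0 measured member probes at 1 h (0.925% of all probes), 3 h (4.72%), 6 h (10.6%) and 12 h (10.3%), and 1 at 24 h (14.0%), the APOC3 probe. Both directions together took in 3.82%, 9.33%, 34.5%, 23.4% and 22.4% of all measured probes in order of exposure. The median difference of the measured members was 0.00, -0.14, 0.82, 0.80 and -0.45 at the 5 times, and that of all measured probes -0.04, -0.01, 0.33, 0.15 and -0.05. Without probes that had any saturated pixel, the members' median at 24 h was -0.39. The members' median at 6 h was below 0 under quantile (-0.02), cyclic loess (-0.09) and normexp (-0.65). Under spike-in scaling it was 0.96 at 3 h and 0.80 at 24 h. At 12 h it was above 0 under every scaling, from 0.19 to 1.10.

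Most member probes are bright, and bright probes as a class had their own course on these arrays. Among all probes with a control signal of at least 10000 units, a class set after the data were seen, the median difference was -0.07, -0.13, 0.66, 0.44 and -0.25. Of these, 34.6% reached 2-fold above the control at 6 h, and 3 of the 7 bright members did. At 12 h 19.2% of the class and 1 of 7 bright members did. At 24 h 15.0% of the class and 1 of 5 bright members were at least 2-fold lower. The SD of a probe's difference within this class was smaller, at 0.21, 0.29, 0.41, 0.30 and 0.33, from 63 to 126 pairs of probes. The bright members among them had medians of 0.82, 0.85 and -0.45 at 6, 12 and 24 h. The last is the value of APOC1 probe A_23_P4649, part of whose pixels were saturated.

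**Figure D2:**
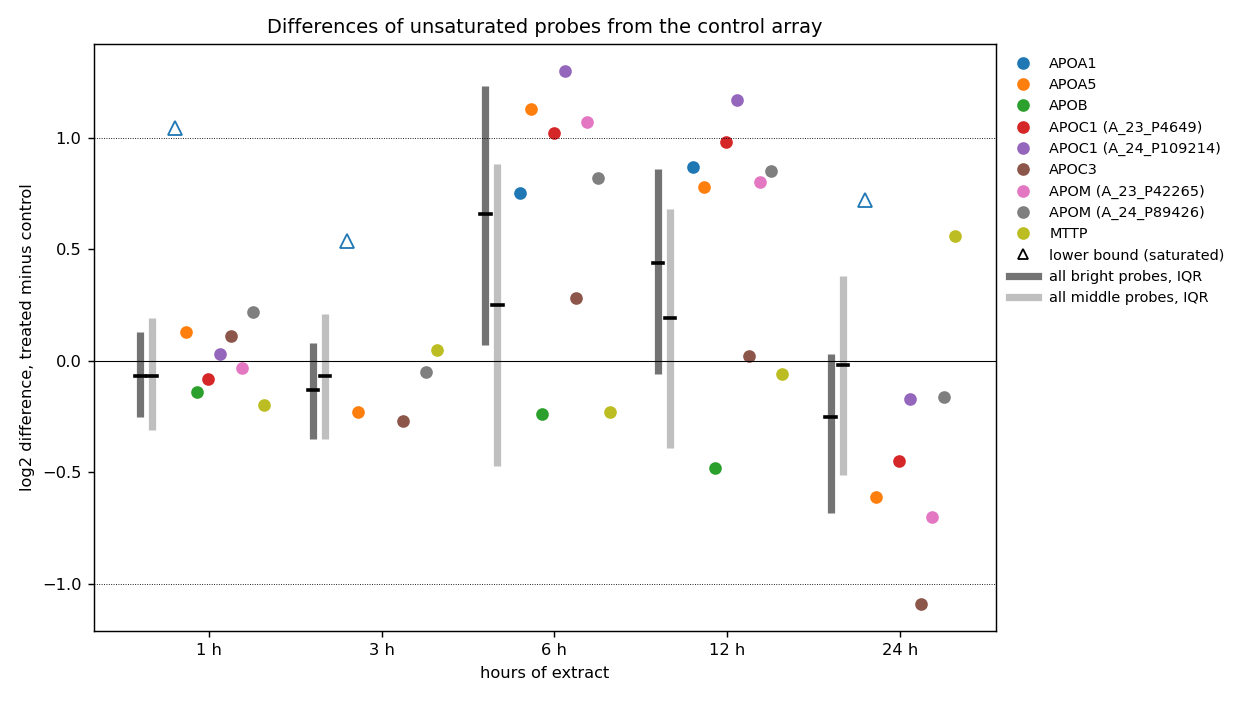
Log2 difference of each unsaturated member probe from the control array, by hours of extract, with 1 colour per probe. Open triangles are lower bounds for APOA1, grey bars are the quartile range of all probes with a control signal of at least 10000 (dark) or from 1000 to 10000 units (light), and black ticks are their medians. At 6 h and 12 h APOB and MTTP sit below 0 while the APOA1, APOA5, APOC1 and APOM points sit above it, and at 24 h MTTP (0.56) sits above 0 and APOC3 (-1.09) lowest.

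Of the high density lipoprotein proteins, APOA1, which encodes the main one, was above its control level on every treated array under percentile scaling. Its processed signal, a mean over repeated spots of the probe, was 20033 units in the control and 58711, 72367, 6711, 20000 and 70930 units in order of exposure. The values at 1 h, 3 h and 24 h were saturated, at 1 h in 1 of 9 spots used and at 3 h and 24 h in all of them. Relative to the array percentile its level was 4.70 on the control array, where the spots lay between 4.64 and 4.76. At 1 h the spots lay between 5.57 and 5.81, so the spots of the 2 arrays did not overlap, although repeated spots of an array measure the same RNA.

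At 1 h APOA1 was at least 2.06-fold higher, at 3 h at least 1.45-fold and at 24 h at least 1.65-fold higher, where each bound sets the saturated value against the control. The bound at 1 h, on the log2 scale, was between 1.01 and 1.19 under the other ways of scaling and 1.27 under spike-in scaling. Of 143 probes saturated at 1 h and not on the control array, 3 had a bound of at least 2-fold. Among 1432 bright probes measured on both arrays, 1 was at least 2-fold higher. Where unsaturated, APOA1 was higher by 0.75 ± 0.79 (SD of a probe's difference) at 6 h, within that error but beyond the SD among bright probes (0.41). At 12 h it was higher by 0.87 ± 0.69, beyond both SDs. The median of bright probes was itself 0.66 at 6 h and 0.44 at 12 h. Against that median APOA1 lay at 0.09 at 6 h, within 0.41, and at 0.42 at 12 h, beyond 0.30. The sign of the difference from the control at 6 h depended on the processing, with values from -0.72 under normexp background correction to 0.77 under median scaling. At 12 h it stayed above 0, from 0.22 to 0.93, and was 1.17 under spike-in scaling.

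**Figure D3:**
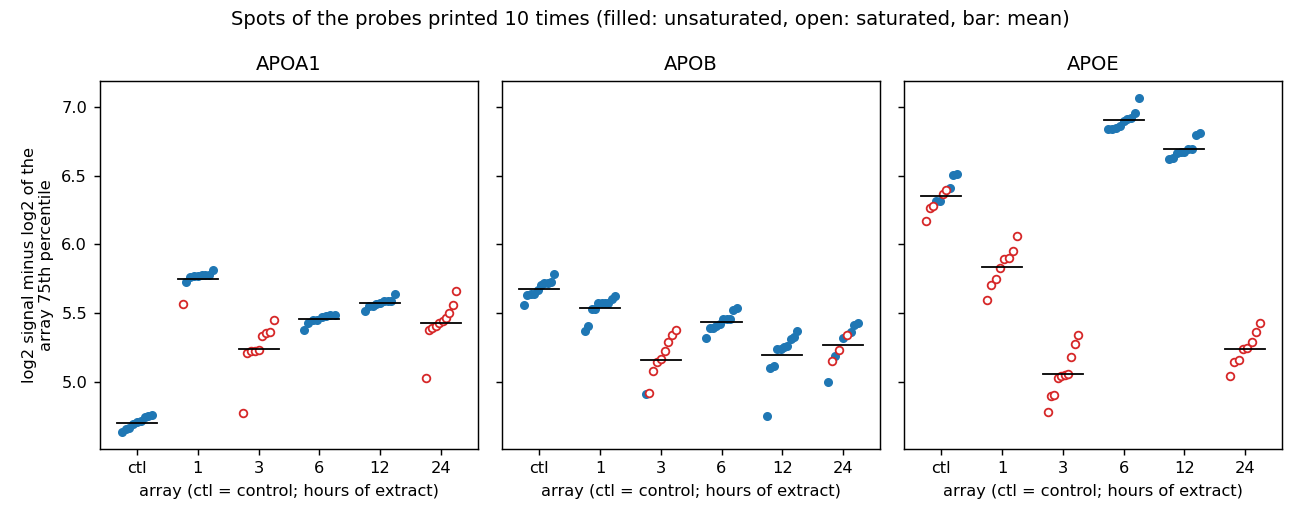
Level of each spot (log2 signal minus log2 of the array's 75th percentile) for the APOA1, APOB and APOE probes, which are printed 10 times per array. Filled points are unsaturated spots, open points saturated ones, and bars are means. Spots of 1 array measure the same RNA. On the control array the APOA1 spots (4.64 to 4.76) lie below those of every other array, whereas the APOB spots of the control array (5.56 to 5.79) overlap those at 1 h.

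APOA2, which encodes the second protein of high density lipoprotein, and APOH, whose product binds phospholipids in plasma, gave no usable comparison. The APOA2 signal lay between 59300 and 64600 units on all 6 arrays, with at least 98.4% of its pixels saturated. APOH was saturated on 5 arrays. At 6 h, where the scanner software did not call it saturated, 48.4% of its pixels were.

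APOM encodes a lipocalin that carries sphingosine 1-phosphate on high density lipoprotein. The signal of its probe A_24_P89426 was 12700 units in the control and 21000, 30400, 4470, 12500 and 24200 units in order of exposure, unsaturated throughout. That of A_23_P42265 was 37200 in the control and 51600, 54700 (saturated), 15600, 35300 and 48900. Both probes were above the control at 6 h and 12 h relative to the array percentile, and both were within 0.25 of it at 1 h. A_24_P89426 was higher by 0.82 ± 0.79 and 0.85 ± 0.69 at 6 h and 12 h, and A_23_P42265 by 1.07 and 0.80. At 24 h they were at -0.16 and -0.70 ± 0.70. The sign at 6 h turned under normexp correction (-0.65 and -0.39), whereas at 12 h both probes were above 0 under every scaling. Against the median of other bright probes A_24_P89426 lay at 0.16 and 0.40 at 6 h and 12 h, and A_23_P42265 at 0.41 and 0.35.

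APOB, the structural gene of very low density lipoprotein, ran below most of the family at 6 h and 12 h. Its signal was 39360 units in the control and 50640, 68500 (saturated), 6633, 15520 and 63567 (saturated) units in order of exposure. The control level was 5.68, with spots from 5.56 to 5.79. At 6 h the spots lay between 5.32 and 5.54 and at 12 h between 4.75 and 5.37. Neither range reached that of the control array, but repeated spots of an array measure the same RNA and show no spread between arrays. APOB differed from the control by -0.14 ± 0.38 after the first hour, then at 6 h by -0.24 ± 0.79 and at 12 h by -0.48 ± 0.69, each within the error. Against the smaller SD among bright probes (0.30 at 12 h) the last value lies beyond it. Both later values were below 0 under every scaling, from -1.72 to -0.22 for the first and from -1.13 to -0.42 for the second, and were -0.41 and -0.18 under spike-in scaling. Against the median of other bright probes APOB lay at -0.90 at 6 h and -0.92 at 12 h.

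MTTP, the partner of APOB in particle assembly, was above the control at 24 h, when the other 6 measured probes were below it under percentile scaling and above it under spike-in scaling. Its signal was 2840 units in the control and 3500, 7260, 481, 1490 and 8960 units in order of exposure, unsaturated on all. The difference was -0.20 ± 0.38, 0.05 ± 0.48, -0.23 ± 0.79, -0.06 ± 0.69 and 0.56 ± 0.70 in order of exposure. All lie within the error of a single probe. At 24 h the value was between 0.56 and 0.76 under the other scalings and 1.82 under spike-in scaling. From 12 h to 24 h the MTTP level was higher by 0.62. At 6 h APOB and MTTP differed from the control by nearly the same amount, 0.01 apart.

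Among the exchangeable apolipoproteins, APOC1, whose product inhibits lipid exchange and the uptake of remnant particles, had, by its probe A_24_P109214, the highest measured difference of the family at 6 h and at 12 h under percentile scaling. APOA5 was above it at both times under quantile and cyclic loess, and at 6 h under normexp. The signal of A_23_P4649 was 41200 units in the control and 55400, 68500 (saturated), 16600, 44300 and 64300 units in order of exposure, and at 24 h 45.2% of its pixels were saturated. That of A_24_P109214 was 25600 in the control and 37000, 58400 (saturated), 12600, 31500 and 48600. The overlapping probes followed the same course, near the control at 1 h, above it at 6 h and 12 h and slightly below it at 24 h. A_24_P109214 was higher by 1.30 ± 0.79 (2.47-fold) at 6 h, then by 1.17 ± 0.69 (2.25-fold) at 12 h, and A_23_P4649 by 1.02 and 0.98. At 6 h the sign turned under normexp correction for both, to -0.17 and -0.49, and for A_23_P4649 also under quantile (-0.02) and cyclic loess normalization (-0.09). At 12 h both stayed above 0 under every scaling, from 0.47 to 1.23 for A_24_P109214 and from 0.19 to 1.04 for A_23_P4649. Against the median of other bright probes A_24_P109214 lay at 0.64 and 0.73 at 6 h and 12 h, and A_23_P4649 at 0.35 and 0.53.

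APOC3 encodes an inhibitor of lipoprotein lipase and of remnant uptake. Under percentile scaling it was the 1 measured member at least 2-fold lower at any time, at 24 h. At that time 14.0% of all measured probes and 15.0% of bright probes were also at least 2-fold lower. The APOC3 signal was 22400 units in the control and 34300, 46100, 5400, 12400 and 22500 units in order of exposure, unsaturated on all. Relative to the array percentile the first 4 treated arrays were within 0.28 of the control, and the array at 24 h was lowest. At 6 h the value turned to -0.50 under quantile, -0.60 under cyclic loess and -1.18 under normexp. The difference was 0.11 ± 0.38, -0.27 ± 0.48, 0.28 ± 0.79, 0.02 ± 0.69 and -1.09 ± 0.70 in order of exposure, the last being 2.13-fold lower. Its level at 24 h differed from that at 12 h by -1.11, and from that at 3 h, the other bright array, by -0.82. At 24 h the value lay between -1.09 and -0.83 under the other scalings, inside 2-fold under cyclic loess, median scaling, normexp and the deposited values, and was 0.17 under spike-in scaling. Against the median of other bright probes it lay at -0.84.

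APOE, whose product is the ligand by which remnant particles are taken up, was saturated on the control array in 5 of its 10 spots, and at 1 h, 3 h and 24 h. The unsaturated signals were 18333 units at 6 h and 43522 at 12 h. No difference from the control was measured, and between 6 h and 12 h the level differed by -0.21.

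APOA5, which encodes an activator of triglyceride hydrolysis, had a signal of 1470 units in the control and 2280, 3110, 641, 1380 and 2050 units in order of exposure, unsaturated on all. Its level was highest at 6 h and lowest at 24 h, a range of 1.74 log2 units. It differed from the control by 0.13 ± 0.38, -0.23 ± 0.48, 1.13 ± 0.79, 0.78 ± 0.69 and -0.61 ± 0.70 in order of exposure. At 6 h and 12 h it stayed above 0 under every scaling, down to 0.05 under normexp at 6 h. At 24 h it was 0.64 under spike-in scaling and below 0 under the others.

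Ratios between members on the same array do not depend on a common scale factor, and the gaps below kept their sign under the 4 alternatives that can change them, quantile, cyclic loess, normexp and the deposited values. At 6 h the difference of APOA1 exceeded that of APOB by 0.99 and at 12 h by 1.35. Over the alternatives this gap lay between 0.85 and 1.00 at 6 h and between 1.16 and 1.36 at 12 h. The gap between APOC1 (A_24_P109214) and APOB was 1.55 at 6 h (1.23 to 1.58 over the alternatives) and 1.65 at 12 h (1.34 to 1.65). At 24 h MTTP exceeded APOC3 by 1.65, a 3.14-fold change in their ratio against the control, and by 1.39 to 1.65 over the alternatives. The error of such a gap between unrelated probes was 1.12, 0.98 and 0.99 at these times. The gap of APOA1 over APOB at 6 h was thus within it. The other gaps were larger, but those of APOC1 over APOB and of MTTP over APOC3 set the highest measured member against the lowest. The error of an unrelated pair is too small a measure for such extremes, so no conclusion is drawn from it. These pairs were chosen after their values were seen, and no test bears on them.

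**Figure D4:**
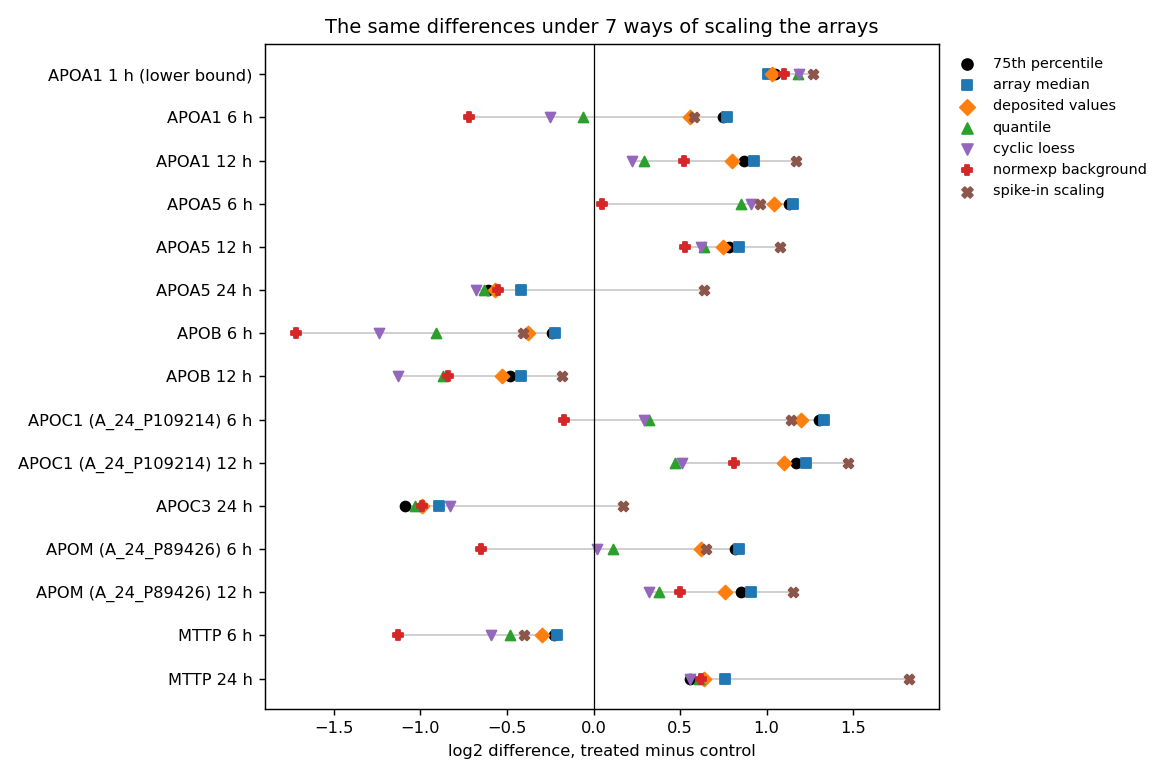
Log2 difference from the control array of selected members under the 75th percentile scaling and 6 other ways of scaling or correcting the arrays, 1 symbol each. The 6 h values of APOA1, APOC1 and APOM spread across 0, the 12 h values of these genes stay above it, APOB stays below it at both times, and at 24 h APOC3 passes 0 under spike-in scaling alone.

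Neighbouring genes on chromosome 11 differed in sign at 24 h under percentile scaling. APOC3 was 2.13-fold lower, APOA5 differed by -0.61 ± 0.70 and APOA1 was at least 1.65-fold higher. APOA5 and APOC3 were 0.47 apart, within the error of such a gap (0.99). APOA4, taken for its place between APOA5 and APOC3, was at 0.14 by one probe and 0.62 by the other, both within the error of 1 probe (0.70). At 12 h APOA5 (0.78), APOA1 (0.87) and both APOA4 probes (0.91 and 1.20) were above the control, and APOC3 was at 0.02.

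The only test the design allows is of a trend over all 6 arrays, a straight line of log2 signal against log2(hours + 1), with the control placed at 0 h by assumption. The residual is scatter about a line, with 4 degrees of freedom, and not a spread between replicates. With limma and Benjamini-Hochberg adjustment 0 of 27756 probes (0.0%) had an adjusted p under 0.05, and 3179 had an unadjusted p under 0.05. The 4 member probes saturated on no array entered the test and none passed. APOC3 had a slope of -0.162 ± 0.117 (SE, n = 6 arrays; limma adjusted p = 0.649), and MTTP one of 0.092 ± 0.095 (limma adjusted p = 0.753). The slope of APOM was 0.057 (limma adjusted p = 0.882) and that of APOA5 0.004 (limma adjusted p = 0.996). A course that is high at 6 h and 12 h and low at 24 h, as that of APOA5, gives a slope near 0 on a line.

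The 4 lists of other genes of the pathway held 82 genes, 81 of them on the array, each taken by 1 probe. At 1 h 1 of 71 measured genes was at least 2-fold higher (2.23% of all genes) and 0 lower (0.981%). At 3 h 1 of 72 was higher (3.51%) and 9 lower (5.26%). At 6 h 15 of 70 were higher (25.5%) and 8 lower (9.89%), and at 12 h 8 of 73 were higher (14.2%) and 3 lower (9.58%). At 24 h 3 of 71 were higher (6.49%) and 3 lower (14.6%). The split depended on the scaling, with 10 higher and 15 lower at 6 h under quantile and under cyclic loess, and 9 and 21 under normexp. At 12 h it was 6 and 7 under quantile and under cyclic loess. The single lists below are given under percentile scaling alone.

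The list of other apolipoproteins also held ORM1, RBP4, PON1 and PON3, which are not apolipoproteins, and APOO and APOOL, which carry the family's name. It had a median of 0.83 at 6 h and 0.67 at 12 h over 15 measured genes, where all genes had 0.38 and 0.20. In that median ORM1 was at 1.36 and 0.94, PON3 at 0.75 and 0.59, APOO at 0.86 and 0.78, and APOOL at 1.2 and 0.38. At least 2-fold higher were 6 of the 15 at 6 h (25.5% of all genes) and 2 at 12 h (14.2%), and lower were 1 (9.89%) and 0 (9.58%). SAA4, a serum amyloid protein carried on high density lipoprotein, was higher by 1.91 and 1.58 at 6 h and 12 h. APOL2, of the apolipoprotein L family, was higher by 2.31 and 1.66. APOL6 of the same family was at -1.66, -1.28 and 0.90 at 3, 6 and 12 h, and another of its probes was at -0.44 at 3 h and -1.27 at 12 h, so the probes disagreed in sign at 12 h.

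The list of assembly and secretion genes had a median of -0.17 at 6 h and 0.05 at 12 h, where APOB was at -0.24 and -0.48 and MTTP at -0.23 and -0.06. At least 2-fold higher were 4 of 20 measured at 6 h (25.5% of all genes) and 3 of 21 at 12 h (14.2%), and lower were 2 (9.89%) and 0 (9.58%). PLA2G12B, a phospholipase family member needed for triglyceride secretion, was higher by 1.64 and 1.59 at 6 h and 12 h. SEC24A, a cargo adaptor of the coat that carries particles from the endoplasmic reticulum, was higher by 1.5 and 1.11. SAR1A, a GTPase of that coat, was higher by 2.20 and 1.55 on one probe but at -0.68 and -0.57 on the other.

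In the list of remodelling and uptake genes the median was -0.25 at 3 h, 0.28 at 6 h and 0.19 at 24 h. All genes had medians of -0.05, 0.38 and -0.09 at these times. At least 2-fold higher were 1 of 18 measured at 3 h (3.51% of all genes) and 2 of 18 at 24 h (6.49%), and lower were 3 (5.26%) and 1 (14.6%). At 6 h 2 of 16 were higher (25.5%) and 1 lower (9.89%). At 12 h 2 of 17 were higher (14.2%) and 1 lower (9.58%). VLDLR, a receptor for triglyceride-rich particles, was at -1.26, -1.61 and -1.03 at 3, 6 and 12 h. ANGPTL8, a secreted regulator of lipoprotein lipase, was at 1.32 at 12 h and 1.87 at 24 h.

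Transcription factors of hepatic apolipoprotein genes had a median of -0.29 at 3 h and -0.46 at 6 h, below the median of all genes (-0.05 and 0.38). At least 2-fold higher were 0 of 20 measured at 3 h (3.51% of all genes) and 3 of 19 at 6 h (25.5%), and lower were 5 (5.26%) and 4 (9.89%). FOXO1, a forkhead factor restrained by insulin signalling, was below the control on both probes, at -1.57 and -1.38 for 3 h and at -1.42 and -0.87 for 24 h. CEBPB was at -2.08 at 3 h and -2.09 at 6 h on one probe and at -0.81 and -0.20 on the other. At 12 h and 24 h the first was at -0.74 and -0.29 and the other at 1.32 and 0.67, so they disagreed in sign. PPARGC1A was at -1.18 and -1.70 at 3 h and 6 h on one probe and at -0.29 and 1.38 on the other. Its probes thus disagreed at 6 h.

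The median course of the 4 members measured on all arrays was 0.12, -0.14, 0.55, 0.40 and -0.39 at 1, 3, 6, 12 and 24 h. Of 18967 probes measured on all 6 arrays, those with the smallest root mean square distance to it over the 5 differences were for FAM181A (0.0434), SLC48A1 (0.0653), IDH3G (0.0666), HIP1 (0.0695) and SEMA4G (0.0728).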

How the data were processed

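RNA of 6 HepG2 samples was purified with an RNeasy kit, then amplified and labelled with a low-input Agilent kit, per the labels' protocols. The scanner files hold green-channel columns, although the dye in the labels is Cy5. The authors deposited spot intensity values with the background already corrected by the scanner software and not scaled between arrays, per the file headers, and a value table of linear intensity, also unscaled. The software's version and the genome build were not given in the sources used here.

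Here, log2 of the processed signal minus the log2 75th percentile of each array's non-control spots was averaged over a probe's spots, without outlier spots. Probes saturated or not well above background on either array were left out of differences. Trends were fitted with limma 3.58.1 in R 4.3.3 on probes unsaturated on all arrays and above background on at least 3. The fit was also run on simulated straight-line changes with independent noise. Such data cannot show whether the fit finds a course that rises and then falls. The labels do not say whether samples are separate cultures. With 1 array per group, their number limits the precision.

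Named genes were every member and, from each list, up to 3 genes at least 2-fold from the control in the same direction at 2 or more neighbouring times, with the largest mean difference. A gene that this rule names is not reported here. For likeness, the 5 nearest probes of other genes were named. The members and lists were chosen with earlier results of these data known. Chromosomes and gene order come from RefSeq (GRCh38.p14). Alternatives were quantile, cyclic loess, median and spike-in scaling, normexp background correction (offset 50), the deposited value table, and other rules for saturated or dim probes. The rules that call a probe saturated by most of its spots or by any pixel were chosen after seeing the data.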

Additional observations from a re-analysis of the deposited data

How the results depend on the processing

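The number of member probes at least 2-fold from the control depended on the scaling. At 6 h it was 4, and 0 under quantile, 1 under cyclic loess (APOB, lower), 2 with the deposited values and 1 under spike-in scaling. With normexp it was 3, all lower (APOB, APOC3 and MTTP). At 12 h it was 1 (APOC1, higher), 1 under cyclic loess but for APOB, lower, and 0 under quantile and normexp, 2 under median and 6 under spike-in scaling. At 24 h it was 1, and 0 under cyclic loess, median scaling, normexp and the deposited values, 3 under spike-in scaling and 4 with saturated probes kept. At 3 h it was 0, and 2 under spike-in scaling and 3 with saturated probes kept. At 1 h it was 0, and 1 (APOA1) with saturated probes kept or with saturation called in most of the spots. Of the differences past 2-fold, those that changed sign were APOC1 A_23_P4649 at 6 h under quantile (-0.02), cyclic loess (-0.09) and normexp (-0.49), at 6 h under normexp APOC1 A_24_P109214 (-0.17) and APOM A_23_P42265 (-0.39), and at 24 h under spike-in scaling APOC3 (0.17). The cause was not tested. Of all 367 single-probe differences under an alternative, 45 had the opposite sign, 12, 5, 12, 5 and 11 in order of exposure. The 367 include those under the rules for saturated or dim probes. These rules leave a measured value as it is and so could not change a sign, which makes the share of changes look smaller. They include APOA1 at 6 h under quantile (-0.06), cyclic loess (-0.25) and normexp (-0.72). Under spike-in scaling 6 of 7 differences at 24 h did. Pathway list genes past 2-fold numbered 0 at 1 h and 20 at 12 h under normexp. Over all probes the split of 2-fold higher and lower, in percent, moved from 2.9 and 0.925 at 1 h to 5.91 and 0.364 under spike-in scaling. From 4.61 and 4.72 at 3 h it moved to 56.4 and 0.485 under spike-in scaling and 1.7 and 4.34 under normexp. From 23.8 and 10.6 at 6 h it moved to 18.7 and 13.3 under spike-in and 17.4 and 12.1 under quantile scaling, 32.1 and 12.4 under normexp, and 40.1 and 11.1 with no background filter. From 13.0 and 10.3 at 12 h it moved to 23.6 and 6.41 under spike-in scaling and 28.1 and 4.25 under normexp. From 8.38 and 14.0 at 24 h it moved to 60.8 and 2.3 under spike-in, 12.5 and 10.4 under median and 10.4 and 11.3 under quantile scaling. The trend test called 0 probes under every alternative, also without each array in turn. No paired analysis was possible because each group holds 1 array.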
